A study of Mus musculus with 4 samples.

Results

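The genes described are the mouse semaphorins, plexins, neuropilins, Eph receptors and ephrins, chosen by symbol (Sema3 to Sema7, Plxn, Nrp, Epha, Ephb, Efna and Efnb) with no measured value in the rule. The array carried 52 of them, out of 18193 genes with a probe set of their own, and these had 123 probe sets in all. They were 7 secreted and 13 membrane-bound semaphorins, 9 plexins, 2 neuropilins, 13 Eph receptors and 8 ephrins. RNA came from melanocytes, the pigment cells of skin, grown as lines on a Balb/c background in medium with serum, 2-mercaptoethanol and the phorbol ester TPA. The pigmented line is labelled wild type, with the point mutation of its tyrosinase gene corrected, and it was measured on 2 arrays. The non-pigmented line carries that mutation in homozygous form and was also measured on 2 arrays. The labels do not say whether a line is 1 clone or whether its arrays came from separate cultures, so the tests measure only the spread between these arrays. Any other difference between the cells of both genotypes cannot be told apart from the corrected base.

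Guidance genes encode signals that steer moving cells and growing processes. Semaphorins are ligands for plexins, whose inner part switches off small GTPases of the Ras family. The secreted semaphorins of class 3 mostly need a neuropilin to reach a plexin, whereas most membrane-bound ones bind plexins directly. Eph receptors are receptor tyrosine kinases that meet ephrins on a neighbouring cell, and the ephrin can signal back into the cell that carries it. Melanocytes descend from the neural crest, a migrating cell population of the embryo whose routes depend on these families. In the chick, ephrins on the path under the skin have been shown to act on melanocyte precursors, and in human melanocytes semaphorin 7A and its receptor plexin C1 have been linked to adhesion and the shape of dendrites.

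The label melanocyte was checked against 7 markers, all of which passed the filter on dim genes described next. That filter uses the mean over both lines and does not check either line alone. Of the 7 markers 6 were called higher in the pigmented line, against 1.33% of all tested genes. Their summed signal was 100589 and 94193 on the pigmented arrays, against 13165 and 15032 on the non-pigmented arrays. Sox10, a neural crest factor, had signals of 8602 and 10232 in the pigmented line and 8268 and 8558 in the non-pigmented line. Kit, the stem cell factor receptor, was at 5086 and 3460 in the pigmented line but at 62.4 and 72.1 in the non-pigmented line, which is close to the filter. Of 5 Schwann cell markers on the array 3 (S100b, Mbp and Sox2) fell in the pigmented line, against 2.03% of all tested genes. Gfap (-2.42) and Cdh19 (-0.59) were lower on the log2 scale without being called, and the lines overlapped for Cdh19. The Schwann cell list summed to 2201 and 3221 in the pigmented line, against 20278 and 23351 in the non-pigmented line. Neuronal markers summed to 1418 and 936 in the pigmented line, against 2934 and 3086 in the non-pigmented line. Map2 was at 601 and 478 in the pigmented line, against 1602 and 2303 in the non-pigmented line. Rbfox3, Snap25, Syt1 and Tubb3 were also lower, whereas Stmn2 was higher (1.87 on the log2 scale). Mural and muscle markers summed to 949 and 875 in the pigmented line, against 3938 and 1845 in the non-pigmented line. Acta2 carried this direction, at 644 and 603 in the pigmented line, against 3674 and 1647 in the non-pigmented line. On the log2 scale Des (-0.23) and Rgs5 (-0.29) were also lower, whereas Myh11 (1.65) and Cnn1 (0.48) were higher. Keratinocyte markers summed to 453 and 460 in the pigmented line, against 872 and 838 in the non-pigmented line. Of them Krt10 fell by limma (log2 difference -3.02, adjusted p = 0.0426). Pkp1 (-2.51) and Krt14 (-0.23) were also lower, whereas Krt5 (0.96), Dsp (0.63) and Krt1 (0.30) were higher in the pigmented line. Fibroblast markers summed to 1614 and 1516 in the pigmented line, against 813 and 969 in the non-pigmented line. Col1a2 carried this direction, at 1222 and 1176 in the pigmented line, against 200 and 348 in the non-pigmented line. Lum was also higher (0.12 on the log2 scale), whereas Pdgfra, Col1a1, Col3a1, Dcn and Thy1 were lower in the pigmented line. Immune markers summed to 872 and 387 in the pigmented line, against 1084 and 2398 in the non-pigmented line, and the endothelial list to 387 and 391 in the pigmented line, against 304 and 298 in the non-pigmented line. Among the immune markers Lyz2 (-2.05 on the log2 scale), Ptprc, Cd3e and Cd68 were lower, whereas Itgam (0.51) was higher. Of the endothelial markers other than Kdr, 0 of 4 passed the filter. The part that other cell types or states play in the results below was not tested, and in bulk RNA fewer cells of a type and less RNA per cell cannot be told apart. The arrays also differed in the Gapdh 3′ to 5′ control ratio, which rises when RNA is degraded or copied short. It was 0.864 and 16.8 on pigmented replicates 1 and 2, against 0.903 and 20.2 on non-pigmented replicates 1 and 2.

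Among the guidance genes, Sema6d and Plxnc1 rose in the pigmented line and Plxnb3, Sema3c, Epha2 and Ephb6 fell. These 6 were the members past an adjusted p of 0.05 by limma, 2 higher and 4 lower, of the 38 members that could be tested. The other 14 had a mean log2(signal + 16) under the filter, set at the 40th percentile of all probe sets, which is a signal of 70.7. Of the tested members 15.8% were called, against 3.36% of all 12558 genes tested. The shares by direction over all genes were 1.33% higher and 2.03% lower. An unadjusted p under 0.05 was reached by 16 members, 4 of them higher and 12 lower, against 13.8% of all genes. By role, the calls were 1 of 4 tested secreted semaphorins (lower), 1 of 10 membrane-bound semaphorins (higher), 1 higher and 1 lower of 9 plexins, 0 of 2 neuropilins, 2 of 7 Eph receptors (lower) and 0 of 6 ephrins. In 7 of the 38 tested members, among them Plxnb3, Epha2 and Ephb6, only the brighter line lay above the filter, so these passed it through the line in which they were high, and the count of calls is a description. The median log2 difference of tested members was -0.57, against 0.07 over all tested genes. Differences are pigmented minus non-pigmented on the log2(signal + 16) scale, which understates changes of dim genes, and errors beside them are standard errors from limma.

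**Figure D1:**
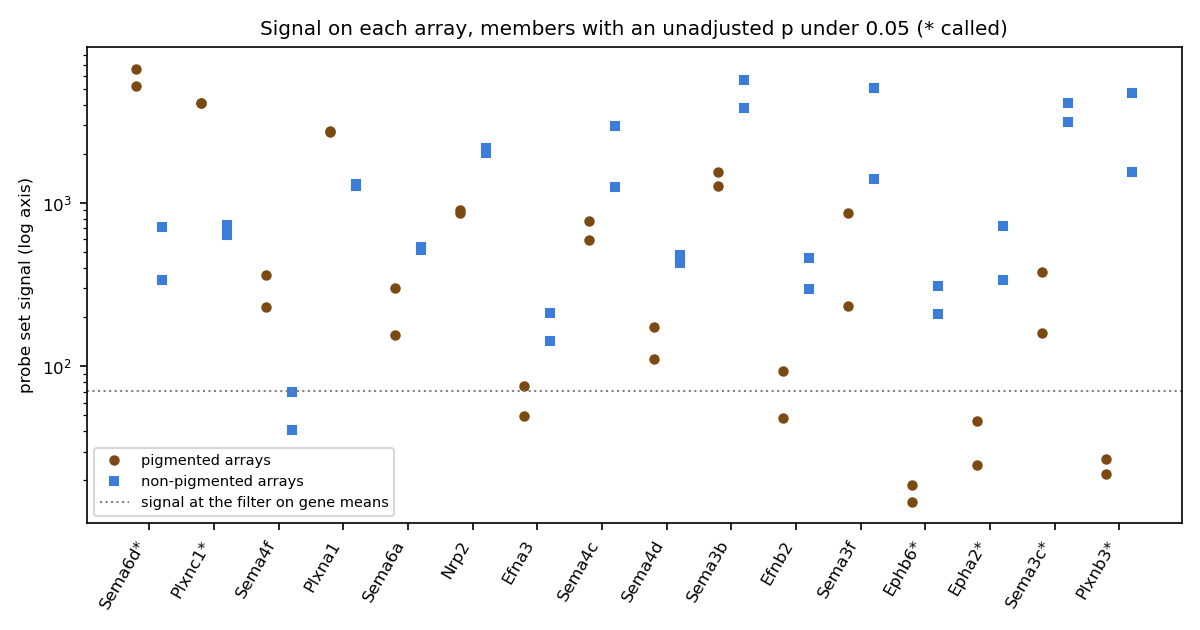
Signal of the 16 members with an unadjusted p under 0.05 on each of the 4 arrays, on a log axis, with brown circles for the pigmented and blue squares for the non-pigmented arrays; the dotted line is a signal of 70.7, the filter on gene means, and an asterisk marks the 6 called members. Sema6d and Plxnc1 are higher on both pigmented arrays, and the pigmented signals of Plxnb3, Epha2 and Ephb6 lie under the dotted line.

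Sema6d encodes a membrane-bound semaphorin that binds plexin A1, as shown in the chick heart. Its signal was 5159 and 6632 on the pigmented arrays, against 714 and 336 on the non-pigmented arrays. Both pigmented arrays were thus far above both non-pigmented ones. Log2 values averaged 12.52 ± 0.26 for the pigmented arrays and 8.98 ± 0.74 for the non-pigmented ones (SD, n = 2 each). The difference was 3.53 ± 0.50 (11.6-fold, adjusted p = 0.0204). Each of the 4 probe sets of Sema6d had a positive difference, between 0.54 and 3.53, and only the brightest was called when every probe set was tested on its own. With the mean of these probe sets the difference was 1.68, at an adjusted p of 0.104. Without non-pigmented replicate 2 it was 3.01, at an adjusted p of 0.0704.

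Plxna1, the receptor gene that pairs with Sema6d, had signals of 2729 and 2749 in the pigmented line, against 1311 and 1275 in the non-pigmented line. The arrays of a line lay close together and the lines did not overlap. Its difference of 1.07 ± 0.39 missed the threshold over all genes, at an adjusted p of 0.288.

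Plxnc1 encodes plexin C1, the receptor of semaphorin 7A. It had signals of 4059 and 4068 in the pigmented line, against 635 and 736 in the non-pigmented line. Replicates were nearly alike and the lines stood well apart. Log2 values averaged 11.99 ± 0.0023 for the pigmented arrays and 9.45 ± 0.15 for the non-pigmented ones (SD, n = 2 each), a difference of 2.54 ± 0.40 (5.83-fold, adjusted p = 0.0276). Each of the 6 probe sets of Plxnc1 had a positive difference, and the 3 above the filter differed by 2.34 to 2.54. When every probe set was tested on its own by limma, only the brightest was called (adjusted p = 0.0479). The others above the filter had adjusted p-values of 0.117 and 0.295. The titles carry 2 dates, each shared by 1 array of either line, and within them the difference was 2.65 and 2.44. With the date as a replicate block Plxnc1 was not past the threshold, at an adjusted p of 0.0907. The adjusted p was 0.146 without non-pigmented replicate 1 and 0.119 without non-pigmented replicate 2, and it was 0.113 with the mean of the probe sets.

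The ligand gene Sema7a did not follow a clear line difference. Its signal was 604 and 2485 on the pigmented arrays, against 430 and 968 on the non-pigmented arrays, so the lines overlapped. The difference was 0.91 ± 0.77 (adjusted p = 0.712). In either line the replicate 2 array, the one with the high Gapdh ratio, was the brighter.

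Plxnb3, which encodes plexin B3, a receptor of semaphorin 5A, showed the largest absolute difference of the 38 tested members. Its signal was 21.9 and 26.9 on the pigmented arrays, against 1536 and 4720 on the non-pigmented arrays. Both pigmented arrays were below the filter and both non-pigmented arrays far above it. Log2 values averaged 5.33 ± 0.13 for the pigmented arrays and 11.40 ± 1.14 for the non-pigmented ones (SD, n = 2 each). The difference was -6.07 ± 0.61 (67.3-fold lower, adjusted p = 0.00764). This fold rests on a dim side and ran with the pseudocount, the log2 difference being -6.74 with a pseudocount of 1 and -4.97 with 64. Both probe sets of Plxnb3 were called lower when tested on their own, by -6.07 and -4.59. It was also the one member called under all 16 alternative settings.

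Of its ligand gene Sema5a, no probe set passed the filter. The signal was 26.9 and 78.4 in the pigmented line, against 90.6 and 65.8 in the non-pigmented line. The lines overlapped, and all 4 probe sets of Sema5a were lower in the pigmented line, by -2.15 to -0.55 on the log2 scale.

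**Figure D2:**
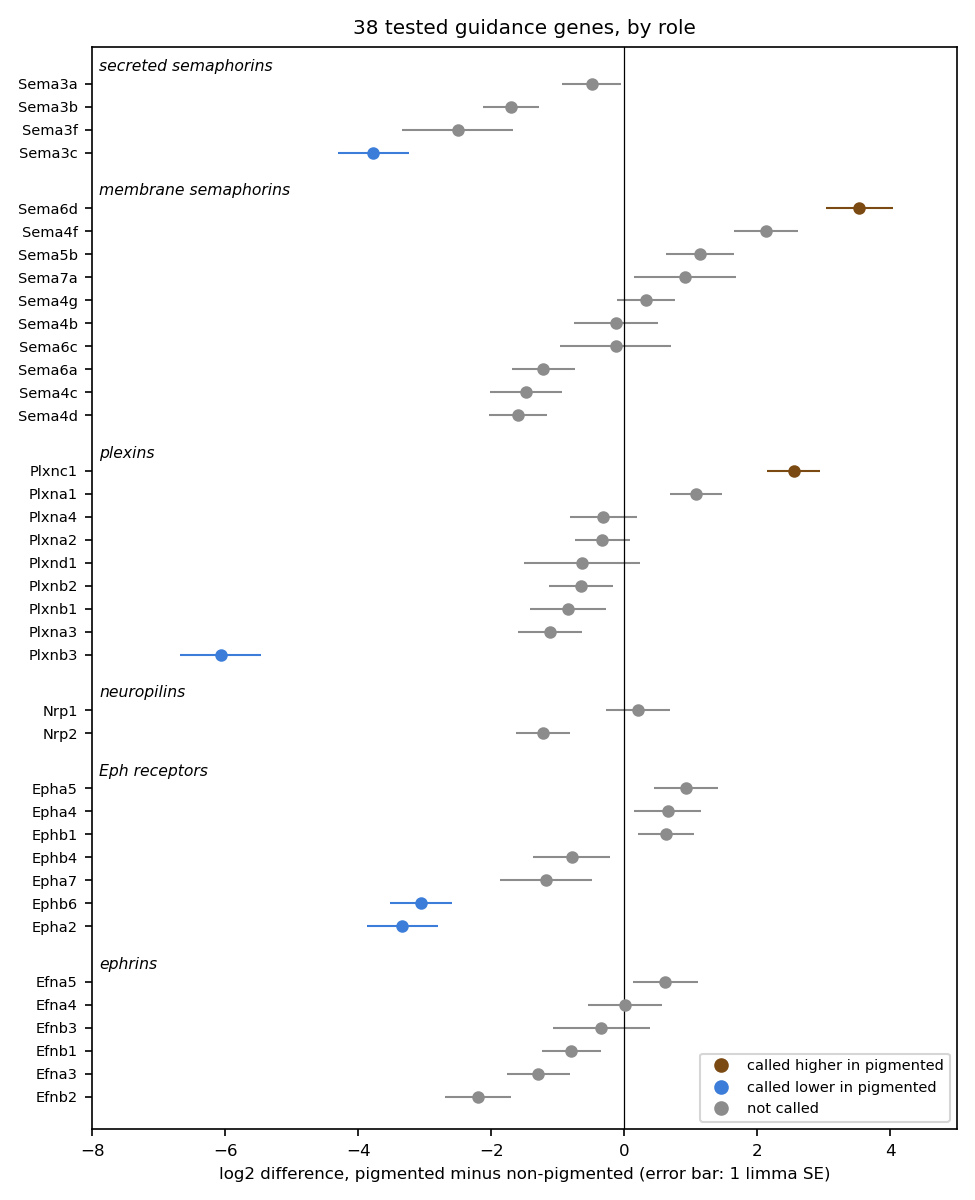
Log2 difference (pigmented minus non-pigmented) of the 38 tested members with 1 limma standard error, grouped by role, with brown for called higher, blue for called lower and grey for not called. Plxnb3 at -6.07 and Sema6d at 3.53 are the ends of the range, and the 4 secreted semaphorins all lie left of 0.

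Sema3c, a secreted semaphorin that in the mouse helps to bring neural crest cells into the outflow tract of the heart, fell in the pigmented line. Its signal was 376 and 159 on the pigmented arrays, against 3128 and 4077 on the non-pigmented arrays. The lines did not overlap. Log2 values averaged 8.03 ± 0.82 for the pigmented arrays and 11.81 ± 0.27 for the non-pigmented ones (SD, n = 2 each). The difference was -3.78 ± 0.53 (13.7-fold lower, adjusted p = 0.0198). A further probe set of Sema3c differed by -2.34 and was not called when tested on its own by limma (adjusted p = 0.107). Without non-pigmented replicate 2 the difference was -3.59 at an adjusted p of 0.0616.

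The other 3 tested class 3 genes had differences below 0 as well, but did not pass the test. Sema3b was at 1550 and 1277 in the pigmented line, against 3795 and 5636 in the non-pigmented line, a difference of -1.71 ± 0.42 (adjusted p = 0.108). The lines did not overlap, though 1 of the 3 probe sets of Sema3b had a difference of 0.36. With the arrays paired by Gapdh ratio as a block, a pairing added after the data were seen, the adjusted p of Sema3b was 0.0396. Sema3f, a ligand that repels cells through neuropilin 2, was at 871 and 234 in the pigmented line, against 1402 and 5055 in the non-pigmented line. Both pigmented values were under both non-pigmented ones, but each line spread widely. The difference of Sema3f was -2.51 ± 0.84 (adjusted p = 0.243), and -0.68 between the replicate 1 arrays but -4.34 between the replicate 2 arrays. The probe set used for Sema3f can also match other transcripts by its name (x_at). Its other probe sets differed by -3.04 and -4.10. When every probe set was tested on its own by limma, the one at -4.10 was called (adjusted p = 0.0328) and the one at -3.04 was not (adjusted p = 0.0557). With probe sets unique to a gene Sema3f was past the threshold, at -3.04 and an adjusted p of 0.0258. With the mean of the probe sets the difference was -3.22, at an adjusted p of 0.0128, and without pigmented replicate 1 it was -3.42, at an adjusted p of 0.0249.

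Sema3a, a ligand known for making growing axon tips collapse, was at 70.6 and 72.0 in the pigmented line, against 125 and 90.7 in the non-pigmented line. Its difference was -0.49 ± 0.45. Sema3d, Sema3e and Sema3g were under the filter. Sema3d was at 6.31 and 5.68 in the pigmented line, against 151 and 130 in the non-pigmented line. The pigmented arrays lay far under the non-pigmented ones, and the filter on the mean over both lines kept Sema3d out of the test. In the fit without a filter its difference was -2.83 ± 0.46 (adjusted p = 0.0464). Sema3g was at 21.4 and 15.0 in the pigmented line, against 97.7 and 81.0 in the non-pigmented line, and in that fit its difference of -1.62 had an adjusted p of 0.220. On the chromosome Sema3d and Sema3a are direct neighbours, as are Efna1, Efna3 and Efna4, and 3 protein-coding genes lie between Sema3b and Sema3f in the RefSeq order.

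The receptors of the class 3 ligands were measured in both lines. Nrp2, a co-receptor favoured by semaphorin 3F, was at 910 and 862 in the pigmented line, against 2011 and 2172 in the non-pigmented line. Replicates of Nrp2 lay close together and the lines were apart. Its difference was -1.22 ± 0.40 (adjusted p = 0.235), and 3 of its 4 probe sets had that direction. Nrp1, the co-receptor of semaphorin 3A, was at 2795 and 3656 in the pigmented line, against 1928 and 3989 in the non-pigmented line. The pigmented values of Nrp1 lay between the non-pigmented ones, and the difference was 0.20 ± 0.48. After centring on the median it was -0.041. Without that centring all 4 probe sets of Nrp1 had a positive difference, between 0.20 and 0.84, and none was called.

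Plxnd1, the plexin that binds semaphorin 3E without a neuropilin and also takes part in semaphorin 3C signalling, was at 1950 and 280 in the pigmented line, against 1213 and 1138 in the non-pigmented line. The pigmented arrays lay on either side of the non-pigmented ones. The difference was -0.64 ± 0.87, and 0.72 without pigmented replicate 2. Plxna3 was at 215 and 421 in the pigmented line, against 675 and 669 in the non-pigmented line, a difference of -1.12 ± 0.48 (adjusted p = 0.387). Plxna2 (-0.33), Plxna4 (-0.32), Plxnb1 (-0.85) and Plxnb2 (-0.66) did not pass either. Of the 9 plexins, all of which were tested, 1 rose and 1 fell.

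Epha2 encodes a receptor for A-type ephrins. It had signals of 46.5 and 24.8 in the pigmented line, against 719 and 339 in the non-pigmented line. Both pigmented arrays were under the filter and both non-pigmented arrays well above it. The difference was -3.34 ± 0.54 (10.1-fold lower, adjusted p = 0.0304). With a pseudocount of 1 it was -3.82 and with 64 it was -2.50. Only 1 probe set, which by its name (a_at) covers several transcripts of the gene, measured Epha2. Its adjusted p was 0.125 without non-pigmented replicate 1, where the difference was -2.81, and 0.0632 with no filter.

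Ephb6 encodes a receptor of B-type ephrins that lacks kinase activity. Its signal was 14.8 and 18.7 on the pigmented arrays, against 311 and 210 on the non-pigmented arrays. As with Epha2, the pigmented signals were dim and the lines did not overlap. The difference was -3.06 ± 0.46 (8.31-fold lower, adjusted p = 0.0251), from 1 probe set. With a pseudocount of 64 it was -1.99. Without non-pigmented replicate 1 the difference was -2.79 at an adjusted p of 0.139, and without non-pigmented replicate 2 it was -3.32 at an adjusted p of 0.0722. With no filter the adjusted p of Ephb6 was 0.0521. When each probe set was tested on its own over 22341 probe sets, of which 1.73% were called, neither the Epha2 nor the Ephb6 probe set was called.

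The 5 other Eph receptors tested did not pass. Epha5 was at 194 and 165 in the pigmented line, against 62.0 and 119 in the non-pigmented line, a difference of 0.93 ± 0.48. Epha7 was at 114 and 361 in the pigmented line, against 310 and 758 in the non-pigmented line, with overlap and a difference of -1.18 ± 0.69. Epha4 (0.65), Ephb1 (0.62) and Ephb4 (-0.79) had smaller differences. Epha1, Epha3, Epha6, Epha8, Epha10 and Ephb3 were under the filter.

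Of the ephrins, the ligands of these receptors, 6 of 8 were tested and 0 were called by limma, with Efnb2 and Efna3 at an unadjusted p under 0.05. Efnb2, a transmembrane ligand of Ephb4 and other B receptors, was at 48.6 and 93.0 in the pigmented line, against 298 and 459 in the non-pigmented line. The lines did not overlap, and the difference was -2.20 ± 0.49 (adjusted p = 0.0849). The probe sets of Efnb2 differed in direction: 2 were lower in the pigmented line, by -2.20 and -2.57, and 1 that passed the filter was higher, by 1.21. With the arrays paired by Gapdh ratio as a block the adjusted p was 0.0334, and without pigmented replicate 2 it was 0.0287. Efna3 was at 75.5 and 49.3 in the pigmented line, against 213 and 142 in the non-pigmented line, a difference of -1.30 ± 0.47 (adjusted p = 0.289). Efnb1 was at 261 and 435 in the pigmented line, against 615 and 582 in the non-pigmented line, a difference of -0.80 ± 0.45. Efna5 was at 2625 and 1309 in the pigmented line, against 1109 and 1306 in the non-pigmented line, and differed by 0.62 ± 0.49. Efnb3 (-0.35) and Efna4 (0.0041) had overlapping lines. The main ligand gene of Epha2, Efna1, was under the filter, at 20.9 and 77.3 in the pigmented line against 75.8 and 108 in the non-pigmented line. Efna2 was under the filter too.

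Of the membrane-bound semaphorins, 9 tested genes besides Sema6d did not pass the test, among them 4 with an unadjusted p under 0.05. Sema4f was at 231 and 360 in the pigmented line, against 69.3 and 40.5 in the non-pigmented line. The lines did not overlap, and the difference was 2.13 ± 0.48 (adjusted p = 0.0880). Its second probe set differed by 3.84, and with the mean of both the difference was 2.99 at an adjusted p of 0.0352. Without pigmented replicate 1 the adjusted p of Sema4f was 0.0473. Sema4d, a ligand of plexin B1, was at 111 and 174 in the pigmented line, against 430 and 479 in the non-pigmented line, a difference of -1.59 ± 0.44 (adjusted p = 0.151). Sema4c, a ligand of plexin B2, was at 597 and 770 in the pigmented line, against 1247 and 2970 in the non-pigmented line, a difference of -1.48 ± 0.55 (adjusted p = 0.295). Both genes had lower signals on both pigmented arrays than on either non-pigmented one.

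Sema6a, a ligand of plexins A2 and A4, was at 155 and 299 in the pigmented line, against 536 and 514 in the non-pigmented line. Its difference was -1.22 ± 0.47 (adjusted p = 0.325), and all 3 probe sets of Sema6a had that direction. Sema5b was at 97.2 and 193 in the pigmented line, against 65.3 and 44.5 in the non-pigmented line, a difference of 1.13 ± 0.51 (adjusted p = 0.418). Sema4g (0.32), Sema4b (-0.13) and Sema6c (-0.13) had overlapping lines. The replicate 2 arrays of Sema6c were the brighter in both lines, with signals of 377 and 1353 in the pigmented line, against 410 and 1504 in the non-pigmented line. Sema4a and Sema6b were under the filter, with Sema6b at 25.2 and 24.2 in the pigmented line against 98.7 and 51.1 in the non-pigmented line.

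Of the 38 tested members, 9 had both pigmented arrays above both non-pigmented ones (23.7%, against 24.4% of all tested genes) and 16 had both below (42.1%, against 19.5%). Differences had the same sign in both pairs of arrays alike in the Gapdh ratio in 31 members, or 81.6%, against 69.4% of all tested genes, and in both dates in 26 members, or 68.4%, against 50.8%. A gene whose lines do not overlap has the same sign in either pairing. These shares therefore partly restate the counts without overlap and are not separate evidence. For Plxnd1 and Efnb3 the sign differed between the pairs, with 0.68 and -1.96 for Plxnd1 and 0.97 and -1.66 for Efnb3. All 6 called members kept their sign in both pairings, which their lack of overlap fixes in advance, so it is no further support. Between arrays of a date Sema6d differed by 3.19 and 3.88, Plxnb3 by -5.18 and -6.97 and Sema3c by -4.17 and -3.39. Epha2 differed by -4.17 and -2.51 and Ephb6 by -3.24 and -2.87. Plxnc1 was nearly the same in both pairs (2.65 and 2.44), and Sema6d was larger in the replicate 2 pair (4.24, against 2.83). The part of RNA integrity in these differences was not tested. Of 17 members with more than 1 probe set past the filter, 13 had all of those probe sets in 1 direction, the exceptions being Efna5, Efnb2, Nrp2 and Sema3b.

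**Figure D3:**
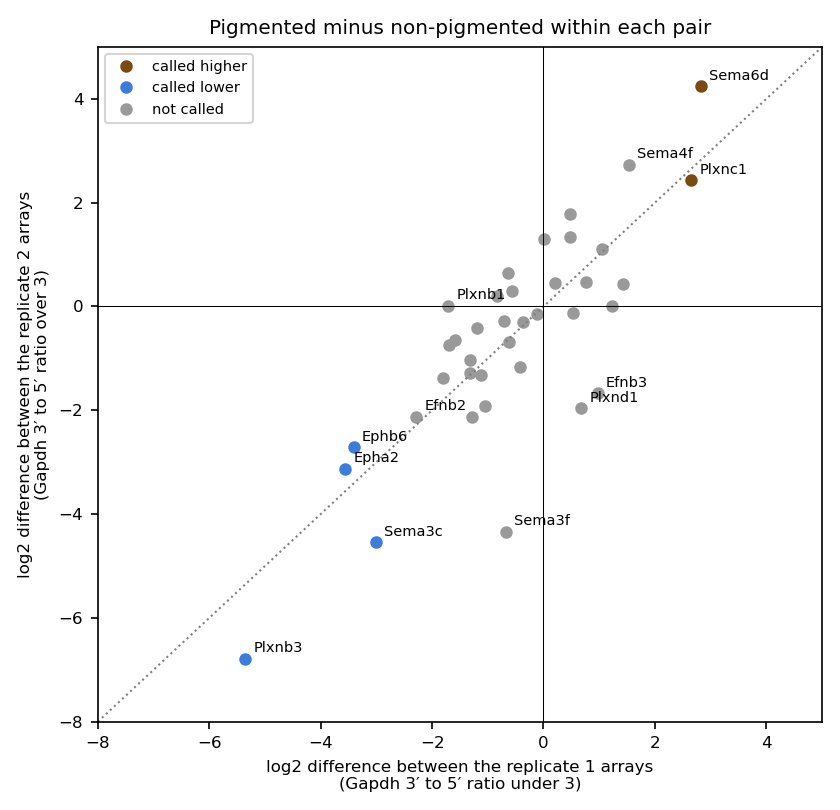
Log2 difference, pigmented minus non-pigmented, of each tested member between the replicate 1 arrays (x axis, Gapdh 3′ to 5′ ratio under 3) and between the replicate 2 arrays (y axis, ratio over 3); the dotted line marks equal values. The 6 called members have the same sign on both axes, as any gene whose lines do not overlap must, and Sema3f is at -0.68 and -4.34.

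**Figure D4:**
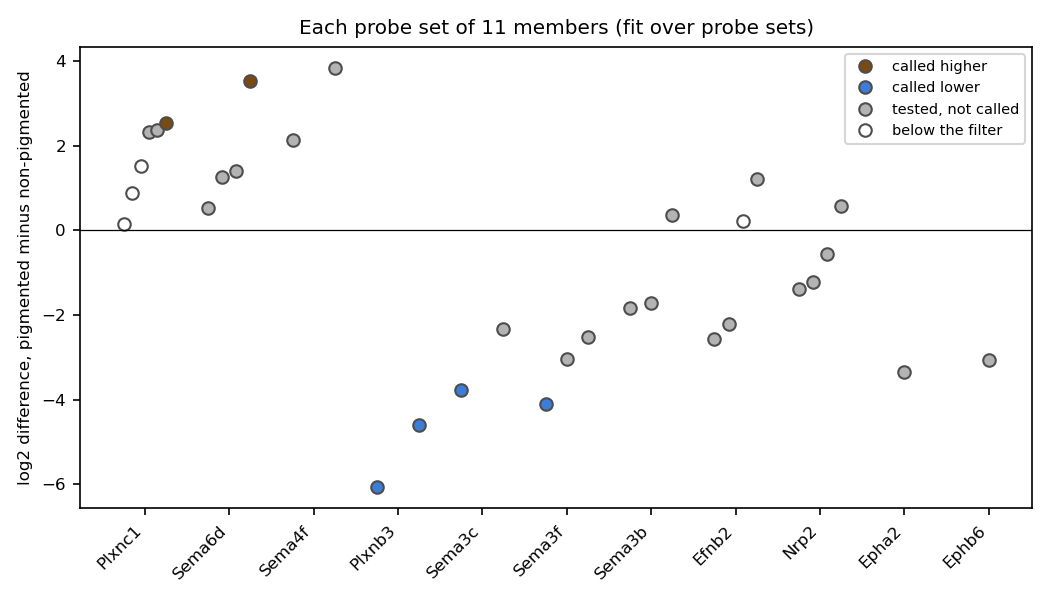
Log2 difference of every probe set of 11 members, brown or blue where the probe set itself was called in a fit over probe sets, grey where it was tested and not called, and white where it was below the filter. Both probe sets of Plxnb3 were called lower, and probe sets of Efnb2, Sema3b and Nrp2 lie on both sides of 0.

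Promoter sequence is shown for 4 of the 6 called members, so that the start regions of the genes that rose and fell can be read side by side. Each is 250 bases before to 50 bases after a gene start, from the RefSeq table on GRCm38.p6, in the direction of the gene. Positions are chr2:124089719-124090018 on the plus strand for the upstream one of 2 starts of Sema6d, chr10:94944796-94945095 on the minus strand for Plxnc1, chr5:17574566-17574865 on the plus strand for Sema3c and chr6:41605261-41605560 on the plus strand for Ephb6. Capitals mark matches, on either strand, to 4 motifs: the E-boxes CACGTG and CATGTG, which factors of the Mitf family can bind, the AP-1 motif TGANTCA, a phorbol ester response element, and the AP-2 motif GCCNNNGGC. No window printed holds more than 1 match, so none overlap.
Sema6d: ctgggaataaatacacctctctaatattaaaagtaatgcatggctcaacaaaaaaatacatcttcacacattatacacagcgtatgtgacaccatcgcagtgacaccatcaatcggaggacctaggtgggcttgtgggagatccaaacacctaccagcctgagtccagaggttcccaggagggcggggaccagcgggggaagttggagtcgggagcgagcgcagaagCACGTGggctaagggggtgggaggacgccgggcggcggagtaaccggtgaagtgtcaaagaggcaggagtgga
Plxnc1: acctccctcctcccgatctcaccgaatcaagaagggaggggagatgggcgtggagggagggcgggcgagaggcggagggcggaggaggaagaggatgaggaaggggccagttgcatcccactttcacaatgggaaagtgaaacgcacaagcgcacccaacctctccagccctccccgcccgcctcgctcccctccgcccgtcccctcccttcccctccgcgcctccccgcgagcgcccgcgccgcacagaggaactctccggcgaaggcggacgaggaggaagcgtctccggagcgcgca
Sema3c: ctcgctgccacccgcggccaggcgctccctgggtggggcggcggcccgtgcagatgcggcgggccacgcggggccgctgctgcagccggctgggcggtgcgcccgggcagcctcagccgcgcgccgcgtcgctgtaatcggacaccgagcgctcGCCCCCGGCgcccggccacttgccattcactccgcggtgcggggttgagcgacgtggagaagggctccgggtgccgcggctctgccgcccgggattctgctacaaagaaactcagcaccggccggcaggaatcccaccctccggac
Ephb6: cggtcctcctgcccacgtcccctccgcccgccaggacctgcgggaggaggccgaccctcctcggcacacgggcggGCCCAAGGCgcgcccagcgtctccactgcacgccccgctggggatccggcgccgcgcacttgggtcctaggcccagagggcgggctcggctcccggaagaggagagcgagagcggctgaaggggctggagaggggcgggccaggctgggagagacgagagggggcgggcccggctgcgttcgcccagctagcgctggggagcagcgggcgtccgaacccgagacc
The Sema6d start held CACGTG at position -23 from the gene start, a motif found in 7.15% of all 32851 promoters of this length and in 6.67% of the 60 promoters of the 46 members that the promoter table lists. Sema3c and Ephb6 each held 1 AP-2 match, at -96 and -175, a motif of 16.6% of all promoters and 21.7% of the members'. Its fixed letters are all G or C, and the GC content was 75.7% in the Sema3c and 76.3% in the Ephb6 window, against a median of 52.7% over all promoters. The windows of Plxnc1, Plxnb3 and Epha2 and the downstream start of Sema6d held none of the 4 motifs. The members' promoters held CATGTG in 8.33%, against 14.2% of all, and TGANTCA in 5.0%, against 7.81%. A match is a description of letters and not of binding.

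Other genes of the guidance pathways were read from the same fit, 84 in all, of which 81 were on the array and 67 were tested. These lists were drawn up with earlier results of these data known. Of the tested genes 1 rose (1.49%, against 1.33% of all tested genes) and 6 fell (8.96%, against 2.03%), and the median difference was -0.20, against 0.07 over all genes. Of the 7 called genes, Chl1 and Ntn4 passed the filter only through the non-pigmented line, in which they were high. Among 10 tested genes for co-receptors of semaphorins, 1 rose and 3 fell, against 1.33% and 2.03% of all tested genes. Met, a receptor tyrosine kinase that can associate with B-class plexins, was at 11109 and 11667 in the pigmented line, against 979 and 808 in the non-pigmented line, and rose by 3.65 ± 0.37 (adjusted p = 0.00792). With the mean of its probe sets the adjusted p of Met was 0.0621. Itga1, a subunit of the integrin that binds semaphorin 7A, was at 159 and 48.6 in the pigmented line, against 2721 and 3823 in the non-pigmented line, a difference of -4.93 ± 0.59 (adjusted p = 0.0117). Chl1, an adhesion molecule of the L1 family that can join neuropilin complexes, was at 89.0 and 8.15 in the pigmented line, against 2153 and 5998 in the non-pigmented line, a difference of -6.16 ± 0.83 (adjusted p = 0.0174). The pigmented side of Chl1 is dim, and the difference was -6.97 with a pseudocount of 1 and -5.13 with 64. It was -2.36 with the mean of its probe sets, at an adjusted p of 0.0892. L1cam, a partner of neuropilin 1, was at 2057 and 2395 in the pigmented line, against 7705 and 9001 in the non-pigmented line, a difference of -1.90 ± 0.35 (adjusted p = 0.0474). The call of L1cam was lost in 10 of 16 alternatives, at adjusted p-values of 0.0508 to 0.516. With the date as a replicate block it was 0.178, and without non-pigmented replicate 1 or 2 it was 0.224 and 0.335. Nrcam, a partner of neuropilin 2, differed by -1.62 without passing.

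Among the cues and receptors of other guidance families, 3 of 16 tested genes fell, against 2.03% of all tested genes, and 0 rose. Unc5b, a netrin receptor, was at 130 and 123 in the pigmented line, against 2376 and 866 in the non-pigmented line, a difference of -3.35 ± 0.57 (adjusted p = 0.0367). Without non-pigmented replicate 1 the adjusted p of Unc5b was 0.105, and with no filter 0.0604. The netrin gene Ntn4 was at 57.4 and 37.2 in the pigmented line, against 375 and 522 in the non-pigmented line, a difference of -2.88 ± 0.45 (adjusted p = 0.0281). Both pigmented arrays were under the filter, and with no filter the adjusted p of Ntn4 was 0.0655. Without non-pigmented replicate 1 or 2 it was 0.0716 and 0.134. Robo1, a Slit receptor, was at 278 and 400 in the pigmented line, against 1706 and 1835 in the non-pigmented line, a difference of -2.35 ± 0.43 (adjusted p = 0.0450). The call of Robo1 was lost in 7 of 16 alternatives, at adjusted p-values of 0.0514 to 0.528. With the date as a replicate block it was 0.128, and with the mean of its probe sets the difference was -0.72 (adjusted p = 0.528). In these 3 genes the lines did not overlap. A further netrin receptor gene, Unc5c, had a difference of -2.52 and an adjusted p of 0.0571.

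No gene of the signalling lists was called by limma. Of 25 tested genes of semaphorin and plexin signalling 5 had an unadjusted p under 0.05, against 13.8% of all tested genes. The smallest were those of Dpysl5 (-2.31, adjusted p of 0.0552), a collapsin response mediator, Farp1 (-2.29, 0.0717) and Limk1 (-2.34, 0.106), the kinase of cofilin. Of 16 tested genes of Eph and ephrin signalling 3 had an unadjusted p under 0.05, again against 13.8% of all tested genes. These were Vav2 (-1.69), Ptpn13 (-1.39) and Rgs3 (-1.66), with adjusted p-values of 0.163 to 0.195.

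**Figure D5:**
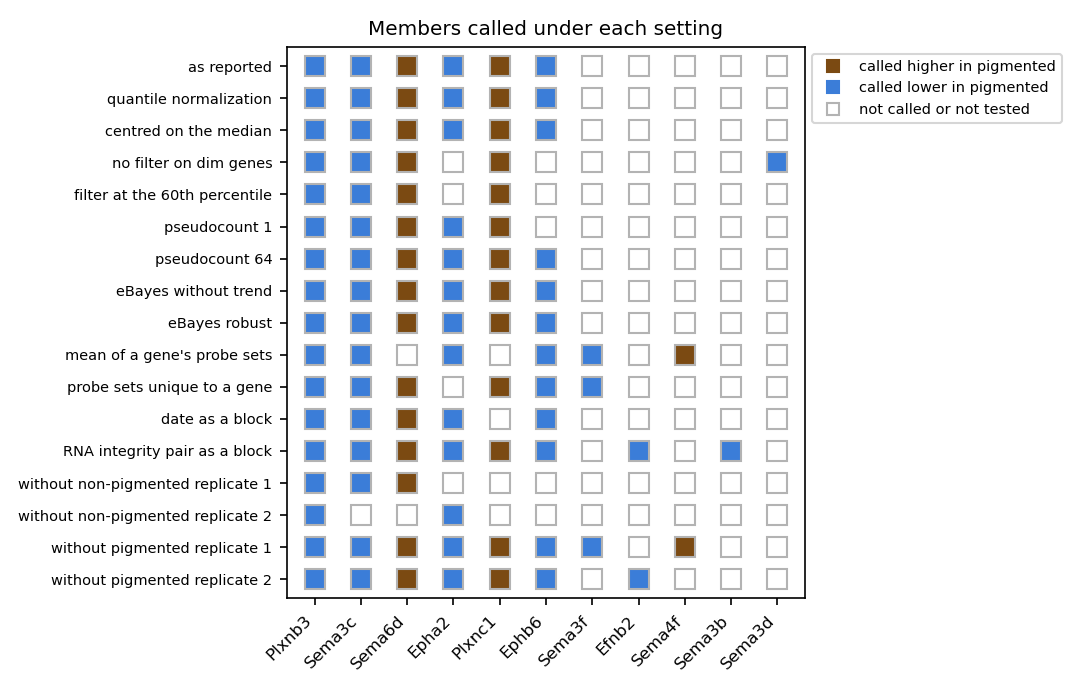
Members called in at least 1 of 17 settings (rows), with a filled square where the adjusted p was under 0.05, brown for higher and blue for lower in the pigmented line. Plxnb3 is filled in every row, Sema3c in all but 1 of the 16 alternatives, and Sema3f, Efnb2, Sema4f, Sema3b and Sema3d in 1 to 3 of them.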

How the data were processed

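The authors deposited probe set intensity values on a linear scale for 4 arrays, made with Affymetrix Expression Console per the submitters' processing notes; its version and summary algorithm are not given in the sources used here. The deposited columns share a mean of 500 after trimming 2% at either end, so they were scaled per array, which does not correct RNA integrity. The files used here hold no detection column.

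Of 45101 probe sets, 34945 carry 1 gene symbol in the platform annotation, 932 several and 9160 none, and 64 are controls. All 52 members matched a symbol in the RefSeq gene table, and 46 had an entry in its promoter table. A gene was represented by its brightest probe set over the arrays. Genes with a mean under the 40th percentile (6.44 on the log2 scale) were left out. Tests used limma 3.58.1 in R 4.3.3 (eBayes with trend) on log2(signal + 16) with 2 residual degrees of freedom, adjusted by Benjamini-Hochberg over 12558 genes. The self-test on simulated data passed. Its noise was drawn independently for each array, so it does not cover deviations shared between arrays alike in the Gapdh ratio. With 2 against 2 arrays an exact two-sided permutation test cannot go under 0.333. Their number limits the precision.

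Deviations from the line means correlated at -0.51 between same-date arrays and at 0.51 between arrays alike in the Gapdh ratio, so the data pair the arrays by that ratio and not by date; with 2 arrays a line either value fixes the other. The date block was kept because the titles give the dates. Alternatives covered scaling, filter, pseudocount, spread estimate, probe set choice, block and leaving out each array. Full values were given for members with an unadjusted p under 0.05 and for partners of called members; of the other lists, called genes and up to 3 with the smallest p. The rule for members uses symbols alone, but members and lists were chosen with earlier results of these data known. Figures used matplotlib 3.10.9 in Python 3.11.15.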

Additional observations from a re-analysis of the deposited data

How the results depend on the processing

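Plxnb3 was called in all 16 alternatives, Sema3c in 15, Sema6d in 14, Epha2 and Plxnc1 in 12 and Ephb6 in 11. Ephb6 was under the filter, and so not tested, in 2 of the 16. Epha2 was under the filter at the 60th percentile. It was also not tested with probe sets unique to a gene, because its only probe set is not of that kind. Averaging probe sets per gene left neither Sema6d nor Plxnc1 called, and the 1 member then called higher was Sema4f. Members called higher (2 as reported) were 1 when probe sets were averaged per gene and 1 with the date as a replicate block, and 0 to 3 without single arrays: 1 without non-pigmented replicate 1 and 0 without non-pigmented replicate 2. Members called lower (4) were 2 with the filter at the 60th percentile, and 2 to 5 without single arrays, 2 without either non-pigmented replicate. The block by Gapdh ratio, chosen after seeing the data, is the crossed pairing of the dates and called 2 members higher and 6 lower, with 884 genes called in all. Other guidance genes called higher (1) were 0 with the mean of probe sets, 2 with the block by Gapdh ratio and 1 without any single array. Those called lower (6) were 2 with no filter, 2 with the mean of probe sets, 12 with the block by Gapdh ratio, and 2 to 8 without single arrays (2 without non-pigmented replicate 1, 3 without non-pigmented replicate 2). The date block changed the call of Plxnc1, L1cam and Robo1 and of no other tested member or called guidance gene. Calls of the cell type markers were not followed across the alternatives. Calls over all genes were 234 without non-pigmented replicate 2 and 772 without pigmented replicate 1, against 422. Centring on the median gave a median difference of all genes of -0.18, against 0.07 as reported, and left the 6 member calls in place, as did quantile normalization. Of 694 values for 45 genes, 633 kept direction and call, 36 lost a call, 8 gained one and 17 changed sign, all 17 in members that were not called. These were Efna4 (-0.22 with quantile normalization, -0.24 with centring, -0.021 with a pseudocount of 64), Nrp1 (-0.041 with centring), Plxna4 (0.51) and Sema4b (0.031) with the mean of probe sets, and 11 without single arrays. Without single arrays Efna4 ranged over -0.66 to 0.66 (lowest without non-pigmented replicate 2), Efnb3 -1.36 to 0.67 and Plxnd1 -2.01 to 0.72 (both highest without pigmented replicate 2), Nrp1 -0.32 to 0.72 (lowest without non-pigmented replicate 1), Plxna4 -0.84 to 0.21 (highest without non-pigmented replicate 1), Sema4b -0.92 to 0.65 (highest without pigmented replicate 1), Sema6c -1.05 to 0.78 (highest without non-pigmented replicate 2) and Sema7a -0.095 to 1.92 (lowest without pigmented replicate 2). The cause was not tested. With 1 array left, a line was assumed to vary like the other. Signals near the filter cannot be told from background.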
